A study of Mus musculus with 4 samples.

Results

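Interleukin-10 (IL-10) and transforming growth factor beta (TGF-beta) restrain macrophages of the gut, and 10 genes of these pathways were followed here in macrophages of the mouse colon. The genes were chosen by their role in these pathways, with earlier results of these data known, and are 10 of the 12596 genes in the count table: the ligands Il10 and Tgfb1, the receptor chains Il10ra, Il10rb, Tgfbr1 and Tgfbr2, the signal transducer Stat3, and the induced genes Socs3, Smad7 and Pmepa1. The cells came from male wild-type C57/Bl6N mice that were gavaged on 5 days per week for about 6 months, either with 12 µg diesel exhaust particles (DEP) in 200 µL phosphate-buffered saline (PBS) or with PBS only. Each gavage group had 2 mice, DEP mice 14 and 15 and PBS mice 2 and 3. Colonic lamina propria cells that were CD11b+ and either Ly6C+ or CD64+ were sorted, and every mouse was loaded into its own well of a droplet assay in a single batch, so that well and mouse cannot be told apart. In this assay a unique molecular identifier (UMI) marks each captured RNA molecule.

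The table held 943 cells, 189 to 334 per mouse, and 1 cell barcode occurred in more than 1 mouse. The 36 cells in which at least 3 markers of some other cell type were detected were set aside, and 907 cells remained with 711099 to 1245311 UMIs per mouse and a median of 2692 to 4683.5 UMIs per cell. All 13 macrophage markers looked at were detected in them, among them Csf1r in 83.6%, Adgre1 in 70.6% and Fcgr1 in 52.1% of cells. Between any of the mice the counts differed beyond counting noise (chi-square per degree of freedom 2.95 to 5.21).

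The 10 genes were described in a pair of cell classes. Plac8-high cells had 2 or more UMIs of Plac8, a gene of monocytes and their early progeny, and numbered 51 and 73 in DEP mice 14 and 15 and 36 and 34 in PBS mice 2 and 3. C1q-high cells had at least 0.5% of their UMIs in the complement genes C1qa, C1qb and C1qc, which mature tissue macrophages express, and numbered 148, 247, 173 and 187 in the same order. Only 20 cells lay just inside the Plac8 limit with exactly 2 UMIs and 57 just outside with 1 UMI, and 6 cells lay on either side of the C1q limit between 0.4% and 0.6%. The monocyte markers Ly6c2 and Ccr2 reached 565 and 632 UMIs per 1000000 (CPM) in Plac8-high cells and 27.6 and 205 CPM in C1q-high cells. Plac8-high cells made up 25.6% ± 3.48 of the retained cells in DEP mice and 17.2% ± 2.06 in PBS mice (SD, n = 2), and C1q-high cells 79.7% ± 2.23 and 88.1% ± 2.17. With 2 mice against 2 the exact two-sided permutation test cannot go below 0.333, and p was 0.333 for both classes.

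PBS mouse 2 stood apart in the Plac8-high class. Of its 36 Plac8-high cells 20 were also C1q-high, against 19 of 51, 10 of 73 and 9 of 34 in the other mice, and their median Plac8 count was 4 UMIs where the others had 9 to 12. The 58 cells in both classes were therefore left out when the classes were compared with each other, which left 136 cells that were Plac8-high only and 697 that were C1q-high only. No doublet caller was run here. The authors report that their own search, based on simulated doublets, flagged no cells. The cells in both classes had a median of 4107.5 UMIs, the C1q-high only cells 4059 and the Plac8-high only cells 3178.5.

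IL-10 binds a receptor of the chains IL-10Ra and IL-10Rb, which activates the transcription factor STAT3, and Socs3 is a STAT3 target whose product dampens cytokine signaling. TGF-beta1 binds TGF-beta receptors of type I and type II, which phosphorylate Smad proteins, and Smad7 and Pmepa1 are induced in turn and inhibit this cascade. In the colon, macrophages that descend from monocytes take up both signals as they mature, and loss of the IL-10 receptor in macrophages is known to cause colitis.

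In the annotation of the GRCm38 genome, Il10 lies at chr1:131019845-131024974, Il10ra at chr9:45253837-45269149, Il10rb at chr16:91406164-91425834, Stat3 at chr11:100885098-100939540 and Socs3 at chr11:117966079-117970047. Tgfb1 lies at chr7:25687002-25705077, Tgfbr1 at chr4:47353222-47414931, Tgfbr2 at chr9:116084293-116175360 and Pmepa1 at chr2:173224458-173276533. Stat3 overlaps Stat5a on the other strand, and Il10ra and Il10rb each overlap 1 annotated gene on their own strand that is not in the table, so that reads of these genes could be shared. Promoter windows from RefSeq (GRCm38.p6) were at hand for 5 of the 10 genes, Stat3, Socs3, Tgfb1, Tgfbr1 and Tgfbr2. The 250 bases before the RefSeq start are shown for Socs3, the STAT3 target among them, and for both TGF-beta receptors. These receptors fell together between the classes, and Tgfbr1 has 2 annotated starts. The Socs3 window lies inside the Socs3 gene as placed above, which on the minus strand starts at 117970047. It is therefore upstream of the RefSeq start only, as is the second Tgfbr1 window, which lies inside Tgfbr1. Capitals mark the letters TTCNNNGAA, the palindrome that STAT factors bind, CAGAC, a Smad-binding element, and GAGGAAG, a PU.1-type motif, each searched on both strands.
Socs3 (chr11:117969367-117969616, minus strand): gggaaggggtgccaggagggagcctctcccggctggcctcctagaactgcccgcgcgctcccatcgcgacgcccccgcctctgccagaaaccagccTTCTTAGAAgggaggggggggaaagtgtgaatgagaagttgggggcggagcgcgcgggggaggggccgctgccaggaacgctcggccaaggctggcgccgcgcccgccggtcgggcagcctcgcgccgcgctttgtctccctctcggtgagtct
Tgfbr2 (chr9:116175364-116175613, minus strand): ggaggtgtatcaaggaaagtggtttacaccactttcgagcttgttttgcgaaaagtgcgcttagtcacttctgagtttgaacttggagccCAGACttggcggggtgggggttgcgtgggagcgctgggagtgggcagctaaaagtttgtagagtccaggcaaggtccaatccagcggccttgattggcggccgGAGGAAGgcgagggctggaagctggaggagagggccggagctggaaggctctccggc
Tgfbr1, first start (chr4:47352972-47353221, plus strand): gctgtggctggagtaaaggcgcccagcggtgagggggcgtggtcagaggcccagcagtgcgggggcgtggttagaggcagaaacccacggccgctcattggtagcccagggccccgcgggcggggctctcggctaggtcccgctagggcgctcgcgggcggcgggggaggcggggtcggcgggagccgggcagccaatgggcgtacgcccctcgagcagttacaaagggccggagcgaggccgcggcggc
Tgfbr1, second start (chr4:47385966-47386215, plus strand): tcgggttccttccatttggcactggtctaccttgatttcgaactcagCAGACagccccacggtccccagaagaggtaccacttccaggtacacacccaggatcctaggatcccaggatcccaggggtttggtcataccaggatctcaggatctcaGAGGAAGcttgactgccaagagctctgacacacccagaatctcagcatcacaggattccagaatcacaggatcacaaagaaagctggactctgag
The Socs3 window held 1 TTCNNNGAA, 154 bases before the RefSeq start and inside the gene as placed above. Of 32851 promoter windows of the same length 7.02% also held it. The windows of Tgfbr2 and of the second Tgfbr1 start each held 1 CAGAC, 160 and 203 bases before the start, and 1 GAGGAAG, which occurred in 42.2% and 10.6% of all windows. None of the motifs was found in the windows of Stat3, Tgfb1 and the first Tgfbr1 start.

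Of the 10 genes 6 were lower in Plac8-high only cells than in C1q-high only cells of the same mouse by edgeR's quasi-likelihood test on UMI sums with the mouse as a block (Benjamini-Hochberg adjusted p under 0.05): Il10, Il10rb, Socs3, Tgfbr1, Tgfbr2 and Pmepa1. Of these, Il10, Tgfbr1 and Tgfbr2 were seen in 3.68% and Pmepa1 in 0.735% of Plac8-high only cells, so that they met the filter of a UMI in 5% of cells only through the C1q-high only cells where they are high, and their calls are given as a description. Their Plac8-high only sums were 5, 5, 5 and 1 UMIs in 136 cells, in that order. A fit without a gene filter, with 12356 genes tested, also called them lower, from the same few UMIs. Il10rb and Socs3 were seen in over 5% of cells of both classes, and of the 6 only their calls are not limited in this way. None was higher, and 7 of 10 were lower in 4 of 4 mice. Smad7, among these 7, was seen in 2.21% of Plac8-high only and 8.03% of C1q-high only cells. It too met the filter only through C1q-high only cells. Across all 5576 genes tested, 20.5% passed the threshold, 11.7% as lower and 8.79% as higher in Plac8-high only cells, and 23.7% were lower in 4 of 4 mice. Genes that met the filter through 1 class are in these shares too, so no excess of the 10 genes over them is claimed. At an unadjusted p under 0.05 the same 6 genes stood beside 30.2% of all genes. The median log2 fold change over all genes was -0.10. Scaling by library size alone in place of TMM (trimmed mean of M-values) moved the median of all genes by 0.27 and the share of higher calls among all calls from 42.9% to 65.2%, while the same 6 of the 10 genes remained lower. They also passed in each of the 18 alternative settings, most of which keep the gene filter. For Il10, Tgfbr1, Tgfbr2 and Pmepa1 this is again a description.

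Il10, the ligand, was at 9.13, 10.8, 34.0 and 0 CPM (TMM-scaled, as all CPM of the comparisons) in Plac8-high only cells of DEP mice 14 and 15 and PBS mice 2 and 3, and at 73.2, 121, 114 and 79.4 CPM in C1q-high only cells. The classes did not overlap, and the Plac8-high only values rested on 5 UMIs in 136 cells against 276 UMIs in 697 cells. Per UMI of the pooled libraries, Il10 was 7.21-fold higher in C1q-high only cells (95% exact interval 3.05 to 22.4, for counting error only), and the fitted log2 fold change was -3.12 (SE 0.47).

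The receptor chains of IL-10 differed from each other. Il10ra, the chain specific to IL-10, was at 146, 145, 136 and 139 CPM in Plac8-high only cells and at 189, 140, 144 and 158 CPM in C1q-high only cells. The ranges overlapped, with a log2 fold change of -0.14 (SE 0.23, adjusted p = 0.750 by edgeR), and the direction turned when libraries were scaled by size alone. Il10rb, which IL-10 shares with IL-22 and type III interferons, was at 164, 86.1, 51.0 and 107 CPM against 251, 222, 204 and 226 CPM. It was lower in all Plac8-high only libraries, with a log2 fold change of -1.12 (SE 0.24, adjusted p = 9.54e-05 by edgeR).

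Downstream of the receptor, Stat3 was at 18.3, 118, 102 and 182 CPM in Plac8-high only cells and at 71.6, 81.2, 108 and 88.5 CPM in C1q-high only cells. The Plac8-high only values spread widely around those of the other class, and the log2 fold change of 0.30 (SE 0.27) did not pass (adjusted p = 0.5001 by edgeR). Socs3, the feedback inhibitor, was at 666, 942, 289 and 675 CPM in Plac8-high only cells and at 1206, 1559, 1408 and 1223 CPM in C1q-high only cells. It was lower in Plac8-high only cells of every mouse, with a log2 fold change of -1.04 (SE 0.15, adjusted p = 8.95e-09 by edgeR).

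Tgfb1, the ligand of the TGF-beta arm, did not separate the classes. It was at 54.8, 80.7, 136 and 85.8 CPM in Plac8-high only cells and at 58.6, 83.5, 91.9 and 88.5 CPM in C1q-high only cells, with a log2 fold change of 0.07 (SE 0.28, adjusted p = 0.911 by edgeR). Tgfbr1, the signaling kinase of the receptor, was at 9.13, 0, 17.0 and 32.2 CPM against 213, 161, 162 and 187 CPM. The highest Plac8-high only library thus lay far under the lowest C1q-high only library. The sums were 5 and 516 UMIs, a ratio of 13.5 per pooled UMI (exact interval 5.74 to 41.7), and the fitted log2 fold change was -3.95 (SE 0.42). Tgfbr2, the ligand-binding chain, was at 18.3, 10.8, 17.0 and 0 CPM against 89.5, 80.1, 99.9 and 108 CPM. Its classes did not overlap either, with 5 and 269 UMIs, a ratio of 7.02 (exact interval 2.97 to 21.8) and a log2 fold change of -2.99 (SE 0.47).

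Pmepa1, the TGF-beta-induced gene that sequesters Smads, had the lowest fitted log2 fold change of the 10 genes. A sum of 1 UMI was counted in 136 Plac8-high only cells, in DEP mouse 14, and 398 UMIs in 697 C1q-high only cells. The C1q-high only libraries stood at 112, 94.0, 196 and 170 CPM. The ratio per pooled UMI was 51.9 (exact interval 9.27 to 2057), and the fitted log2 fold change of -5.66 (SE 0.61) depends on the prior count. Smad7, the inhibitory Smad, was sparse in both classes, at 0, 10.8, 0 and 10.7 CPM against 11.4, 17.4, 20.0 and 31.8 CPM. With 3 and 60 UMIs it was lower in 4 of 4 mice without passing the threshold (log2 fold change -1.501, SE 0.80, adjusted p = 0.196 by edgeR).

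**Figure D1:**
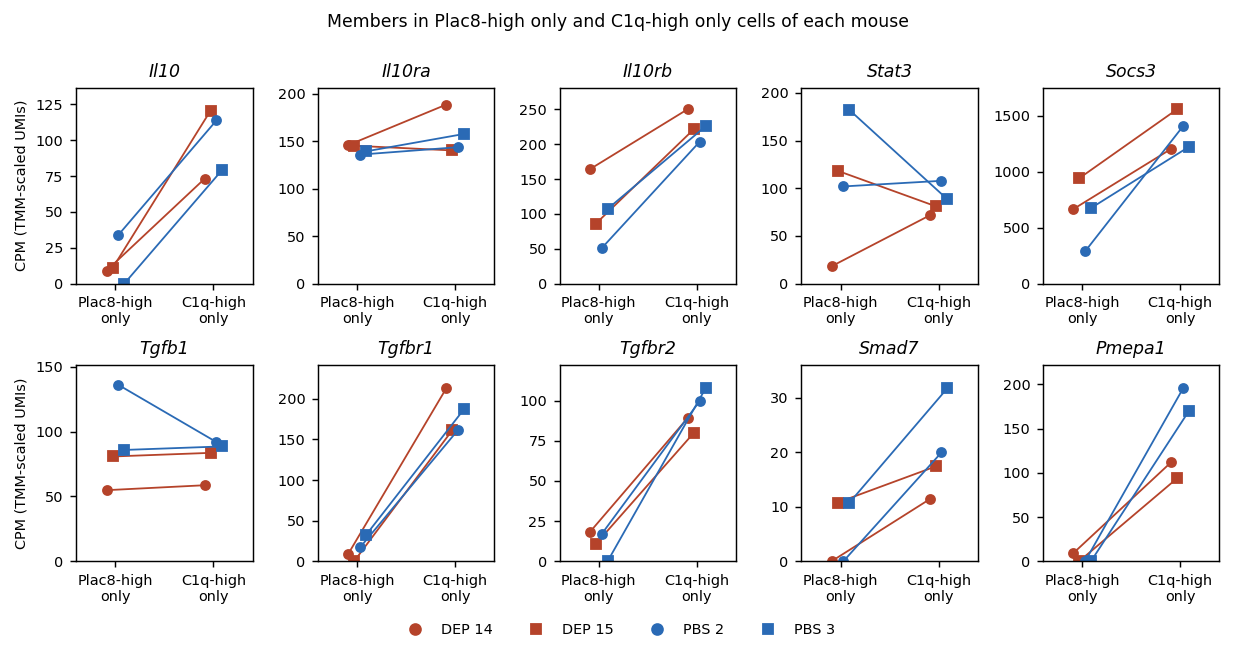
CPM of the 10 genes (y axes, TMM-scaled, starting at 0) in Plac8-high only and C1q-high only cells, with a line for each of the 4 mice, DEP in red and PBS in blue. Lines of Il10, Il10rb, Socs3, Tgfbr1, Tgfbr2, Smad7 and Pmepa1 rise in every mouse, those of Il10ra, Stat3 and Tgfb1 do not.

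The difference was also one of how many cells had a UMI. After every cell was thinned to 1000 UMIs, a Socs3 UMI was seen in 44.9% of Plac8-high only and 61.4% of C1q-high only cells, an Il10rb UMI in 7.35% and 19.2%, and a Tgfbr1 UMI in 0.735% and 13.1%. Unthinned, at medians of 3178.5 and 4059 UMIs per cell, these shares were 65.4% and 85.8%, 25.7% and 52.5%, and 3.68% and 42.3%. For Pmepa1 the unthinned shares were 0.735% and 34.7%, and in 18 B or plasma cell-like cells left out of the comparison, with a median of 6758.5 UMIs, 16.7%. No cell type of the table is known to lack these genes, so that no share of free RNA was set. Stat3 was seen in 5.15% of thinned Plac8-high only and 9.04% of thinned C1q-high only cells, and Tgfb1 in 9.56% and 5.74%.

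**Figure D2:**
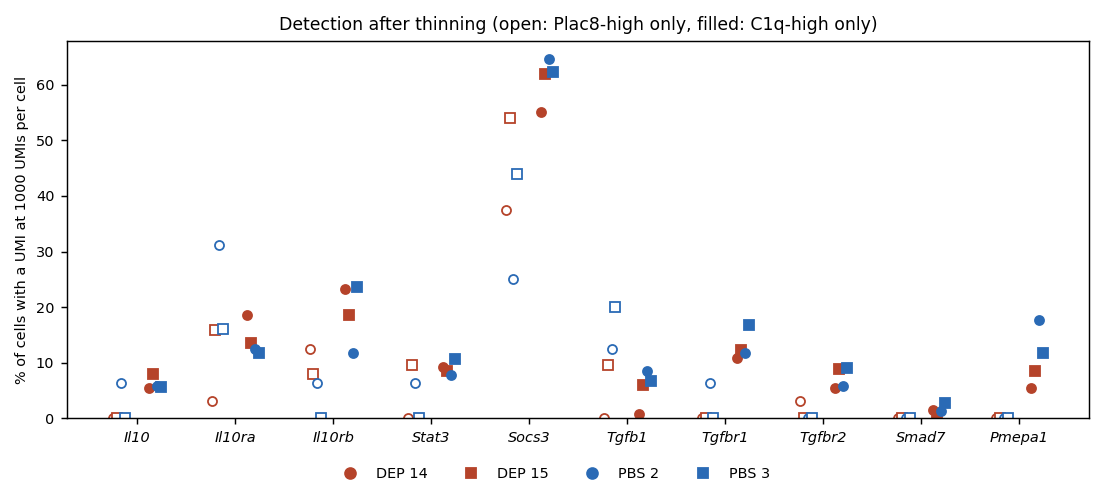
Share of cells with a UMI (y axis, %) after thinning to 1000 UMIs per cell, for each of the 10 genes and 4 mice, in Plac8-high only cells (open symbols) and C1q-high only cells (filled symbols). Open symbols of Tgfbr1 and Pmepa1 lie at 0 in all mice other than PBS mouse 2 for Tgfbr1, while filled Socs3 symbols lie above all open ones.

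Il10 was unevenly spread among C1q-high cells. Its 283 UMIs lay in 104 of 755 cells, 56 of which had 1 UMI, while 20 cells with 5 or more UMIs held 153 of them. The top 5 cells of each mouse held 68.1%, 40.2%, 67.2% and 46.5% of that mouse's Il10 UMIs in DEP mice 14 and 15 and PBS mice 2 and 3, so that the level of a mouse rested on few cells. Cells with an Il10 UMI were deeper, at a median of 5119 against 4011 UMIs. Among Plac8-high cells 9 of 194 had a UMI of Il10 and none had 5. Both IL-10 receptor chains were seen together in 25.03% of C1q-high and 13.4% of Plac8-high cells, and both TGF-beta receptor chains in 14.3% and 2.58%, at their unequal depths. After thinning to 1000 UMIs these shares were 2.65% and 1.03% for IL-10 and 0.795% (6 cells) and 0.515% (1 cell) for TGF-beta, so that no difference in TGF-beta receptor pairs could be read at equal depth.

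Across the C1q share of the cell, values are given for single mice and rest on few UMIs in the smaller bins. Bins of under 0.5%, 0.5% to 1%, 1% to 2% and over 2% of UMIs in C1q held 152, 51, 462 and 242 cells. Pmepa1 went from 9.83 to 212, 156 and 106 CPM (library size) in PBS mouse 3 and from 36.2 to 185, 163 and 188 CPM in PBS mouse 2. In DEP mouse 14 it was at 9.32, 27.4, 117 and 77.9 CPM and in DEP mouse 15 at 0, 56.8, 76.9 and 87.0 CPM. At 0.5% to 1% both PBS mice lay above both DEP mice, on few UMIs in 51 cells. The share of all genes split this way in that bin was not counted, so nothing is read from it. From this bin to the next, Tgfbr1 went from 27.4 to 196 CPM in DEP mouse 14 and from 57.7 to 169 CPM in PBS mouse 3. It was at 114 and 119 CPM in DEP mouse 15 and at 148 and 146 CPM in PBS mouse 2. Whether these steps exceed counting noise was not tested. Tgfbr2 was lowest under 0.5% in every mouse, at 18.6, 25.1, 36.2 and 0 CPM in DEP mice 14 and 15 and PBS mice 2 and 3, and at 54.9 to 111 CPM in the next bin. Il10rb was highest over 2% in each mouse, at 280, 205, 234 and 250 CPM, and Socs3 was higher above 1% than below it in every mouse. Stat3 had no shared direction, with DEP mouse 14 lowest under 0.5% at 28.0 CPM and PBS mouse 3 highest there at 167 CPM. In the 58 cells of both classes, Pmepa1 was at 99.98 CPM (29 UMIs), Tgfbr1 at 69.0 and Tgfbr2 at 62.1, where C1q-high only cells had 122, 158 and 82.6 CPM and Plac8-high only cells 2.35, 11.8 and 11.8 CPM. Il10 was at 24.1 and Socs3 at 610 CPM in these cells, beside 11.8 and 772 CPM in Plac8-high only cells. These values are descriptions, since the bins share their mice and the class limits.

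**Figure D3:**
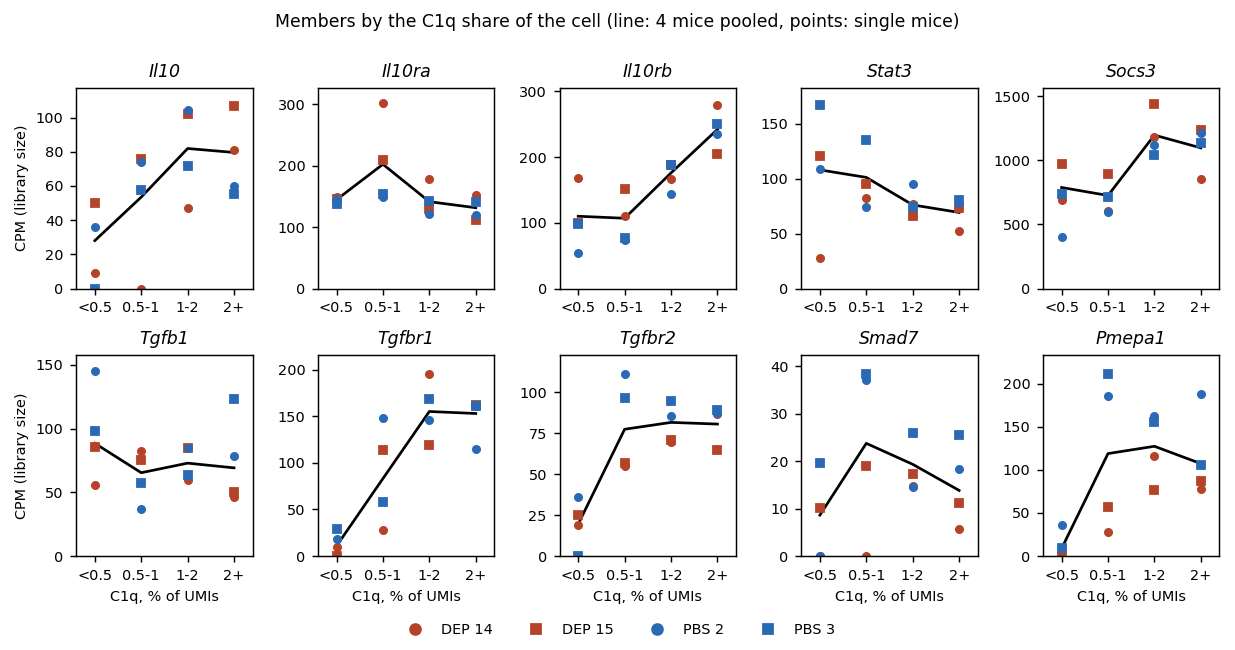
CPM of the 10 genes (y axes, scaled to library size) by the share of the cell's UMIs in C1q genes (x axes, 4 bins in %), with points for single mice and a line for the 4 mice pooled. Pooled lines hide the spread of single mice, as for Pmepa1 at 0.5% to 1%, a bin of 51 cells with few UMIs. DEP mice are there at 27.4 and 56.8 and PBS mice at 185 and 212 CPM, a split that was not set against all genes. The Il10rb points are highest in the last bin.

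Other genes of the pathways were read against the same background of 20.5%. Of 17 tested IL-10 pathway genes 4 were higher and 4 lower in Plac8-high only cells (median log2 fold change 0.19). Maf, a transcription factor that drives Il10, was lower (log2 fold change -2.82), as were the hemoglobin scavenger receptor Cd163 (-3.59), Il4ra (-0.95) and Etv3 (-0.80). Cd163 was not lower in every mouse, at 17.0 against 5.99 CPM in PBS mouse 2. The IL-1 receptor antagonist Il1rn (1.25), the TNF receptor Tnfrsf1b (1.46) and Nfil3 (1.25) were among the higher. Il1rn was higher in Plac8-high only cells of the DEP mice only, at 210 and 544 against 81.3 and 129 CPM. In PBS mice 2 and 3 it was lower, at 85.0 and 75.1 against 108 and 78.3 CPM. The TGF-beta list leaned downward, with 9 lower and 3 higher of 22 tested genes and a median of -0.88. Among the lower were the Smad corepressors Skil (-2.20) and Ski (-3.09), the integrin chains Itgav (-2.47) and Itgb5 (-3.41), which form a receptor for latent TGF-beta, the receptor Acvrl1 (-0.87), the chemokine receptor Cx3cr1 (-1.71), and the transcription regulators Id2 (-1.45) and Runx3 (-1.18). Higher were Thbs1 (2.67), which activates latent TGF-beta, Id3 (0.92) and Klf10 (0.62). The fitted direction of these called genes held under each scaling. In Plac8-high only libraries Cd163 was at 0, 0, 17.0 and 0 CPM and Ski at 0, 5.38, 0 and 10.7 CPM. Itgb5 was at 0, 21.5, 0 and 10.7 CPM there, and Itgav at 9.13 to 17.0 CPM. Genes this sparse met the filter of a UMI in 5% of cells only through C1q-high only cells, so their calls, counted above, are a description. Maf was sparse there too, at 0 to 32.2 CPM.

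Of 15 genes around STAT3 and the SOCS proteins 4 were lower and 2 higher. Lower were the cyclin Ccnd1 (-2.86), the cytokine receptors Lifr (-1.94) and Il21r (-1.43), and Junb (-0.47), while the phosphatases Ptpn1 (1.18) and Ptpn6 (0.70) were higher. Il21r was not lower in every mouse, at 73.0 against 68.3 CPM in DEP mouse 14. In Plac8-high only libraries Ccnd1 was at 0, 16.1, 0 and 0 CPM and Lifr at 18.3, 0, 17.0 and 10.7 CPM. Both met the gene filter only through C1q-high only cells, so their calls are a description. Of 20 immediate early and heat shock genes that respond to tissue dissociation, 7 were lower and 1 higher. Lower were Dnajb1 (-1.59), Fosb (-1.38), Jund (-1.22), Klf6 (-0.74), Egr1 (-0.74), Junb (-0.47) and Dusp1 (-0.41), and higher was Nr4a1 (1.55). The medians of these lists were -0.20 and -0.14, and turned to 0.08 and 0.15 when libraries were scaled by size alone. Their part in the Socs3 difference was not tested. Among other cell classes, the 2 neutrophil markers of the table summed to 15.4 to 57.3 CPM in Plac8-high and 1.27 to 2.84 CPM in C1q-high cells, and the 4 dendritic cell markers to 24.6 to 216 and 16.8 to 25.4 CPM, with Clec9a at 0 in Plac8-high cells. The B or plasma cell list, mostly immunoglobulin transcripts, summed to 780 to 4168 and 947 to 1645 CPM. Their part in the class differences was not tested.

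Next, DEP mice were compared with PBS mice within each class, the comparison the gavage was made for. In C1q-high cells none of the 10 genes passed, and over all 5747 genes tested edgeR's quasi-likelihood test called 0%, with 348 genes (6.06%) at an unadjusted p under 0.05, 1 of the 10 among them, and 0 calls by DESeq2. Both DEP mice lay below both PBS mice for 5 of the 10 genes (Pmepa1, Smad7, Tgfbr2, Tgfb1 and Stat3) and above them for none, beside 17.8% of all genes below and 17.5% above. The mitochondrial share of UMIs was split the same way in C1q-high cells, at 2.25% and 1.91% in DEP mice and 2.34% and 2.41% in PBS mice, and the 9 monocyte markers summed to 803 and 448 CPM in DEP mice and 383 and 434 CPM in PBS mice. Their part in these values was not tested. The median log2 fold change was -0.14 over the 10 genes and -0.01 over all genes. In such sums, fewer cells with a transcript and less RNA per cell cannot be told apart.

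Pmepa1 had the smallest unadjusted p of the 10 genes in C1q-high cells. It was at 96.8 and 82.0 CPM in DEP mice 14 and 15 and at 179 and 151 CPM in PBS mice 2 and 3. The groups did not overlap, and the log2 fold change was -0.88 (SE 0.19, adjusted p = 0.224 by edgeR). A Pmepa1 UMI was seen in 27.1% of C1q-high cells of DEP mice and 42.5% of those of PBS mice, and in 7.34% and 14.2% after thinning. The value passed the threshold when no filter on genes was used (adjusted p = 0.0139) and when immunoglobulin transcripts counted as markers (adjusted p = 0.0480), and not in the other 14 alternatives, where DESeq2 gave an adjusted p of 0.9998.

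Smad7, the other induced inhibitor, was at 10.3 and 15.8 CPM in DEP mice and 17.4 and 27.0 CPM in PBS mice, from 8, 16, 11 and 28 UMIs. The groups did not overlap, with a log2 fold change of -0.79 (SE 0.40, adjusted p = 0.841 by edgeR). Tgfbr2 was at 77.4 and 70.1 against 90.4 and 95.6 CPM (log2 fold change -0.34, SE 0.20, adjusted p = 0.890 by edgeR). Tgfb1 was at 55.5 and 75.1 against 84.1 and 78.2 CPM, where DEP mouse 15 came close to PBS mouse 3. Stat3 was at 67.1 and 72.1 against 92.0 and 80.2 CPM, and both genes had log2 fold changes of -0.29. None of these passed the threshold.

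In the other 5 genes the groups overlapped in C1q-high cells. Il10 was at 60.6 and 106 CPM in DEP mice and 92.0 and 68.6 CPM in PBS mice, a spread within groups as wide as any between them (log2 fold change 0.11, SE 0.25). Tgfbr1 was at 175 and 138 against 141 and 165 CPM (0.02, SE 0.19). Il10ra was at 175 and 131 against 127 and 146 CPM, and Il10rb at 217 and 199 against 178 and 201 CPM, with log2 fold changes of 0.15 and 0.13. Socs3 was at 1023 and 1388 against 1171 and 1071 CPM (0.11, SE 0.15), and the dissociation genes summed to 24841 and 33047 against 29619 and 30132 CPM, lowest and highest in the same mice as Socs3. Their part in the Socs3 values was not tested.

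**Figure D4:**
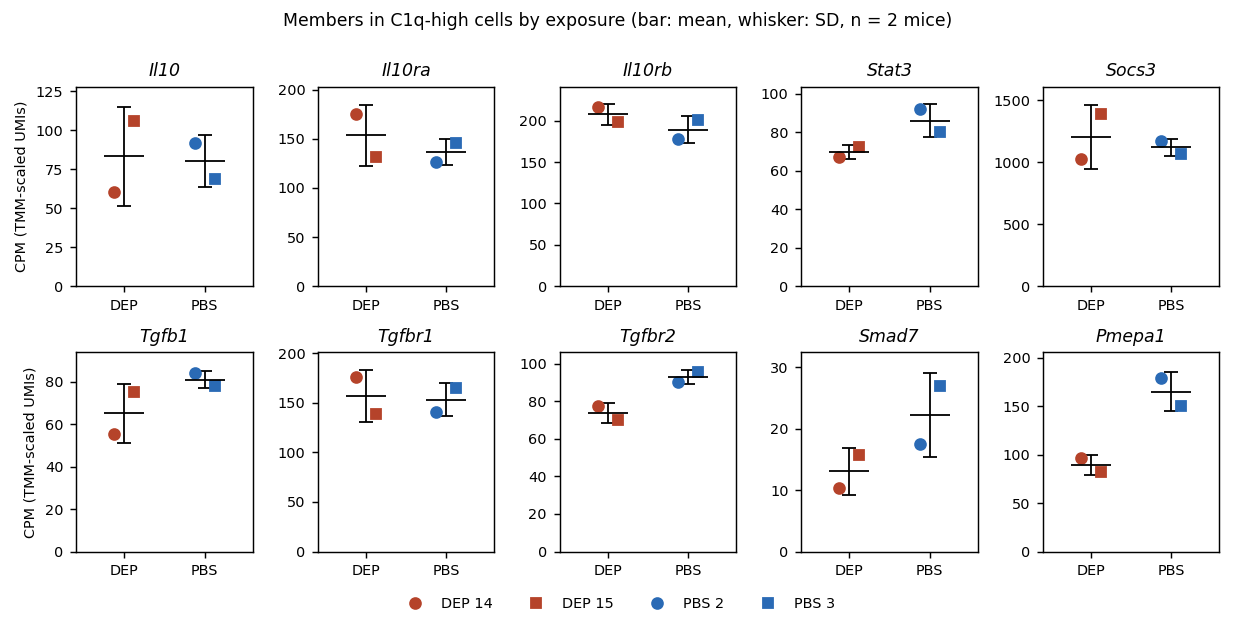
CPM of the 10 genes (y axes, TMM-scaled, starting at 0) in C1q-high cells of 2 DEP and 2 PBS mice, with a bar for the mean and a whisker for the SD. Pmepa1 shows the clearest gap, 96.8 and 82.0 against 179 and 151 CPM, and none of the 10 genes passed the adjusted threshold.

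In Plac8-high cells 8 of the 10 genes met the gene filter. Il10 and Smad7, with 12 and 6 UMIs in all, were seen in 4.64% and 3.09% of cells, under the limit of 5%. None of the 8 passed, and edgeR called 0% of 5172 genes, with 350 (6.77%, and 3 of the 8 genes) at an unadjusted p under 0.05, 0 calls by DESeq2 and 18 by the likelihood ratio test. Both DEP mice lay below both PBS mice for 2 of the 8 genes and above them for 1, beside 17.7% and 19.1% of all genes. Tgfbr1 was counted 6 and 1 times in DEP mice 14 and 15 and 9 and 9 times in PBS mice 2 and 3, or 31.5 and 4.14 against 78.7 and 60.4 CPM. The groups did not overlap, with a log2 fold change of -2.02 (SE 0.69, adjusted p = 0.551 by edgeR) that ranged from -3.83 to -1.10 as each mouse was left out. A Tgfbr1 UMI was seen in 4.03% of Plac8-high cells of DEP mice and 18.6% of those of PBS mice. Tgfbr1 thus met the filter of 5% of cells only through PBS mice, and its place among the 2 genes is a description. Pmepa1 was counted 7 and 2 against 15 and 6 times, or 36.8 and 8.28 against 131 and 40.3 CPM, with a log2 fold change of -1.91 (SE 0.69, adjusted p = 0.551 by edgeR). Without PBS mouse 2 it was -0.92 (adjusted p = 0.908). Of the 25 Tgfbr1 UMIs 20 and of the 30 Pmepa1 UMIs 29 lay in the 58 cells that were also C1q-high. Those cells were unequally frequent among the mice, and with them left out neither gene met the filter.

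Socs3 was the gene among the 8 that lay higher in both DEP mice, beside 19.1% of all genes tested in Plac8-high cells. It was at 657 and 978 CPM against 437 and 631 CPM in PBS mice. The gap between DEP mouse 14 and PBS mouse 3 was narrow, and the log2 fold change of 0.61 (SE 0.25, unadjusted p = 0.0258) did not pass (adjusted p = 0.665 by edgeR). Without PBS mouse 2 it was 0.38, and without the cells of both classes 0.67. The dissociation genes summed to 23838 and 32134 against 26163 and 32503 CPM in these cells, overlapping between groups. Stat3, at 52.5 and 104 against 87.4 and 148 CPM, Tgfb1, at 68.3 and 78.7 against 131 and 73.9 CPM, and Tgfbr2, at 36.8 and 16.6 against 69.9 and 26.9 CPM, overlapped between groups. So did Il10ra, at 189 and 162 against 140 and 168 CPM, and Il10rb, at 168 and 108 against 114 and 128 CPM. The log2 fold changes of these 5 genes lay between -0.83 for Tgfbr2 and 0.17 for Il10ra, and none passed.

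Over all retained cells, which C1q-high cells dominate, 1 of 5566 genes passed (0.018%), Plac8 itself (log2 fold change 1.18, SE 0.13, adjusted p = 0.0121 by edgeR), and none of the 10. At an unadjusted p under 0.05 were 6.31% of genes and 1 of the 10. Pmepa1 was at 86.6 and 68.3 CPM in DEP mice and 170 and 139 CPM in PBS mice (log2 fold change -0.995, SE 0.19, adjusted p = 0.386 by edgeR). The likelihood ratio test called it (adjusted p = 0.00825), as did the fit without a filter (9.68e-04) and the one with immunoglobulin markers (0.0175). With class as a term the log2 fold change was -0.81 (adjusted p = 0.694). The 5 genes with both DEP mice below both PBS mice were the 5 named for C1q-high cells, beside 19.1% of all genes, but most cells are the same ones.

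**Figure D5:**
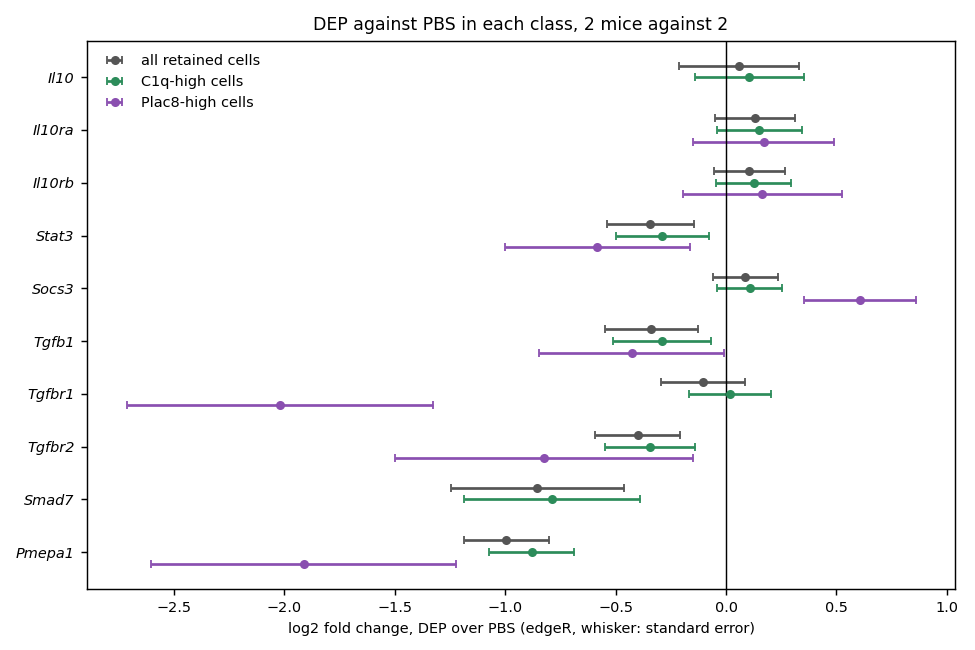
log2 fold change of DEP over PBS (x axis) of the 10 genes (y axis) in all retained, C1q-high and Plac8-high cells, with the approximate standard error as whisker. Pmepa1 lies at -0.995, -0.88 and -1.91, Il10 and Smad7 were not tested in Plac8-high cells, and none of the values passed the adjusted threshold.

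Whether the DEP difference itself differed between the classes was tested with an interaction term over the 8 libraries of cells in only 1 class. None of the 10 genes passed, where 16 of 5576 genes did (0.287%) by edgeR and 0 by DESeq2, and 2 of the 10 stood beside 5.9% of all genes at an unadjusted p under 0.05. Socs3 had an interaction of 0.59 on the log2 scale (SE 0.27, unadjusted p = 0.0289, adjusted p = 0.737 by edgeR), which was 1.503 (adjusted p = 0.0139) without PBS mouse 3 and 0.075 without PBS mouse 2, and Tgfbr1 one of -2.87 (SE 1.39, adjusted p = 0.804) from 5 UMIs on the Plac8-high side. The other 8 had unadjusted p over 0.05.

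The pathway lists likewise held no call for DEP against PBS in any of the 3 sets of cells. In Plac8-high cells among the smallest p of the IL-10 list were those of Il1rn, at 236 and 472 against 114 and 47.0 CPM (log2 fold change 2.21, SE 0.42, adjusted p = 0.0930 by edgeR), and of Prdm1, the repressor Blimp-1, at 57.8 and 74.6 against 8.74 and 6.72 CPM (3.02, adjusted p = 0.238). Both genes had both DEP mice above both PBS mice, beside 19.1% of all genes tested in these cells. The PBS values of Prdm1 lay under those of 3 UMIs, which are 24.6 and 19.6 CPM in PBS mice 2 and 3. Prdm1 met the filter of a UMI in 5% of cells only through DEP mice, so its values are a description. In the interaction fit Il1rn passed, with 210 and 544 against 85.0 and 75.1 CPM in Plac8-high only and 81.3 and 129 against 108 and 78.3 CPM in C1q-high only cells (2.03, SE 0.49, adjusted p = 0.0141 by edgeR), in 9 of 17 alternatives and not by DESeq2. Prdm1 (3.74, adjusted p = 0.131) and Il4ra (0.96) followed. Prdm1 was there at only 17.0 and 0 CPM in Plac8-high only cells of PBS mice 2 and 3.

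In the TGF-beta list, Id2 (0.79), Cdkn1a (0.53) and Cx3cr1 (-0.54) had the smallest p for DEP in Plac8-high cells, and Smad2 (0.83), Skil (-0.37) and Cx3cr1 (-0.32) in C1q-high cells, all log2 fold changes without a call. Their interaction values were led by Cdkn1a (1.07, adjusted p = 0.0539 by edgeR) and Id2 (1.13). Around STAT3, Pim1 (-0.65), Mcl1 (-0.50) and Fos (-0.23) led in Plac8-high cells, Pim1 (-0.45), Junb (-0.22) and Lifr (0.61) in C1q-high cells, and Il21r, Fos and Ccnd1 in the interaction. Of the IL-10 list, Cd163, at 33.5 and 32.6 against 6.34 and 18.3 CPM (1.27), and Hmox1 (0.72) led in C1q-high cells. The dissociation genes leaned toward PBS, with 14 of 20 below 0 in C1q-high and 15 of 20 in Plac8-high cells, beside 2919 of 5747 and 2610 of 5172 of all genes. Jund (-0.57 and -1.13) led in both classes, with Fosb (-0.46) and Dusp1 (-0.56) in C1q-high and Klf2 (-0.82) and Hspa8 (0.54) in Plac8-high cells. Over all retained cells the leading genes were Il1rn (0.90), Cd163 (1.12) and Hmox1 (0.72), Skil (-0.42), Cx3cr1 (-0.38) and Smad2 (0.72), Junb (-0.24), Pim1 (-0.43) and Ptpn1 (0.34), and Fosb (-0.49), Jund (-0.59) and Klf2 (-0.49).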

How the data were processed

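Colonic macrophages of 4 mice were measured by droplet single-cell RNA-seq. Per the labels and methods, Cell Ranger demultiplexed the reads, aligned them to mm10 with STAR (2.6.1a in the submitters' processing notes) and made the count table, and the authors filtered the cells on quality, merged the mice without downsampling and deposited 1 table of raw UMI counts, with no normalization. Gene symbols came from a name table for 12576 of 12596 identifiers and positions from GENCODE M21 (GRCm38, Ensembl release 96).

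Cells in which at least 3 markers of 1 other cell type were detected were set aside. The 5 secreted immunoglobulin transcripts (Igkc, Igha, Jchain, Iglc2, Ighm), of which Igkc was seen in 56.7% of all cells, were not counted as markers, a choice made after the data were seen, since counting them would leave out 297 cells. UMI counts were summed per mouse and class. Libraries of 49967 to 1245311 UMIs were tested with edgeR 4.0.16 (R 4.3.3; TMM, quasi-likelihood test, Benjamini-Hochberg over all genes tested, threshold 0.05), on genes over 1 CPM in 2 or more libraries that were seen in at least 5% of cells. For DEP against PBS, 4 libraries entered each fit. The class comparison and the interaction used 8, with the mouse as a block, because both libraries of a number come from the same animal. Standard errors were set as the absolute log2 fold change over the square root of F and are approximate. Ratios of sparse genes carry exact conditional binomial intervals at 95%, and shares of cells in each class were compared by exact permutation in scipy 1.17.1. Intervals cover counting error only. With 2 mice per group, the edgeR p-values rest on a spread between mice that is estimated with help from all genes. In the class comparison and the interaction the mouse is a block, so the spread is that of the class difference across mice.

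Alternatives were DESeq2 1.42.0, the likelihood ratio test, other scalings, gene filters, cell filters and class limits, counts thinned to 1000 UMIs, class as a term and each mouse left out. The scripts were tested on simulated data. The text names the 10 genes in every comparison, the class genes, and of 4 pathway lists every gene past the threshold and the 3 of smallest p per comparison, some of which are not reported here. These genes, lists and tests were chosen with earlier results of these data known. The authors' cell annotation was not used here.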

Additional observations from a re-analysis of the deposited data

How the results depend on the processing

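Between the classes Il10rb and Socs3 kept direction and call in all 18 alternatives. So did Il10, Tgfbr1, Tgfbr2 and Pmepa1, as a description, since most alternatives kept the filter they met only through C1q-high only cells. Smad7 was called between the classes at a C1q limit of 0.25% (-2.89). This is a description as well, since Smad7 met the filter only through C1q-high only cells. No gene of the 10 was called for DEP against PBS, other than Pmepa1 as given. Counts of all genes moved more. Between the classes DESeq2 called 635 and thinned counts 473 genes in place of 1142, each mouse left out gave 805 to 1096, and without the replicate block, which pairs libraries of the same mouse, the count was 1122, with no call of the 10 genes changed. No paired analysis was possible because the DEP and PBS mice share no replicate number, for the comparisons of exposure. Over all cells the single call became 7 by the likelihood ratio test, 44 without a gene filter, 13 with immunoglobulin transcripts counted, 0 in thinned counts and 0 with class as a term, and 0 to 2 with a mouse left out. In Plac8-high cells the likelihood ratio test gave 18 calls, upper-quartile scaling 12, no gene filter 41, no cells set aside 2, cells in both classes left out 25, and a mouse left out 7 to 25. In C1q-high cells these were 2 by the likelihood ratio test, 27 without a gene filter, 1 with all cells, 9 with immunoglobulin transcripts counted, 1 at a C1q limit of 1%, and 0 to 18 with a mouse left out. The 16 interaction calls became 0 by DESeq2, 3 with all cells and 4 in thinned counts, and 10 to 18 with a mouse left out. The cause of these moves was not tested.

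The direction turned in 32 fits, in none of which the difference was a call. For DEP against PBS in thinned counts, the log2 fold changes of Il10 became -0.21 and of Stat3 0.029 over all cells, of Il10ra -0.60 and Stat3 0.84 in Plac8-high cells, and of Il10 -0.022 and Tgfbr1 -0.26 in C1q-high cells. With immunoglobulin transcripts counted, Socs3 became -0.0030 over all cells, Il10ra -0.13 in Plac8-high and Tgfbr1 -0.25 in C1q-high cells. As each mouse was left out over all cells, Il10 ranged from -0.44 to 0.38, Il10ra from -0.059 to 0.32, Il10rb from -0.0050 to 0.22, Socs3 from -0.14 to 0.28 and Tgfbr1 from -0.33 to 0.11. In Plac8-high cells Il10rb ranged from -0.17 to 0.48 and Tgfb1 from -0.81 to 0.0016. In C1q-high cells Il10 ranged from -0.38 to 0.42, Il10ra from -0.065 to 0.35, Socs3 from -0.13 to 0.31 and Tgfbr1 from -0.16 to 0.19. Between the classes, Il10ra became 0.14 by library size alone and 0.098 at a C1q limit of 1%, Stat3 became -0.97 in thinned counts, and Tgfb1 became -0.020 by upper quartile, -0.12 without a gene filter and -0.085 with all cells. Left-out mice took Stat3 from -0.016 to 0.61 and Tgfb1 from -0.059 to 0.14 there. The shares of Plac8-high cells differed by 5.90 to 10.8 percentage points over its alternatives, each mouse left out included. Plac8-high only libraries of 49967 to 182057 UMIs limit what can be said of Il10, Smad7, Tgfbr1, Tgfbr2 and Pmepa1 there.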
